A study of Mus musculus with 6 samples.

Results

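The matrix metalloproteinases (MMPs) and their tissue inhibitors (TIMPs) were followed across arrays of Pax5-deficient pro-B cells of the mouse. Pax5 is the factor that fixes B lineage identity at the pro-B stage. The members were taken by gene symbol: Mmp2, Mmp3, Mmp8, Mmp9, Mmp12, Mmp13, Mmp14, Timp1, Timp2 and Timp3. They are 10 of the 18193 genes that had a probe set with a single gene symbol. A probe set is a group of array probes for 1 transcript region, and the members had 22 of them among the 45037 tested, 11 for MMPs and 11 for TIMPs. The genes were picked with results of these arrays already known, so their EBF and control values are a description and no p-value is given for any of them.

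The 6 arrays form 2 groups of 3, named EBF 1 to 3 and control 1 to 3 after their replicate numbers. The EBF arrays hold Pax5-/- pro-B cells that received the Mig-EBF retrovirus, which carries EBF, a transcription factor required for early B cell development. The control arrays hold Pax5-/- pro-B cells that received the MigR1 retrovirus. In both groups the cells grew on ST2 cells, a stromal line, with IL-7 at 5 ng/ml, and cells positive for GFP were sorted 2 days after infection. Whether replicates came from separate cultures or mice is not in the labels, and p-values cover only the spread between these arrays, which may be technical.

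MMPs are secreted or membrane-bound zinc proteases that cut collagens and other matrix proteins. Most are made as inactive proenzymes whose propeptide has to be removed, and TIMPs block the active enzymes by binding in the catalytic cleft. In bone marrow, stromal cells, osteoblasts, neutrophils and macrophages are known producers of several of these proteins.

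The array medians lay between 424 and 451 in intensity, the deposited linear unit. The highest of 27 control probe sets for Bacillus transcripts reached 410, and a probe set whose means in both groups lay below that value is called dim here. The median of these controls was 97.6 to 108 per array, so a dim probe set can lie well above the usual Bacillus signal. The limit lies just under the array medians, and the share of all probe sets that were dim was not computed. Counts of dim genes are therefore a description and do not show that a cell type is absent. Of 14 measured early B lineage genes, 13 were above this limit. The sum of intensities over the 14 was 80810 to 81411 in the EBF arrays and 69830 to 73136 in the controls. Bright genes weigh most in such a sum, and the median log2 difference of the 14, EBF minus control, was 0.11. The brightest Ebf1 probe set read 4772, 4756 and 4082 in the EBF arrays, against 4204, 4276 and 4029 in the controls, and whether it lies in the part the virus carries is not known here. In a limma fit of group alone over all probe sets, 394 passed an adjusted p of 0.05. Without EBF 3 that count was 4287, and without another array it was between 79 and 214.

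Of the 22 member probe sets, 1 passed this threshold, against 0.875% of all probe sets (0.344% higher and 0.531% lower), and it was that of Mmp13, higher in the EBF arrays. When replicate number was added to the model as a block 2 passed, Mmp13 as higher and a Timp3 probe set as lower, against 7.28% of all (4.88% higher and 2.4% lower). The EBF and control arrays did not overlap in 4 of the 22, namely Mmp13 and Mmp3 (EBF higher) and Mmp2 and 1 Timp2 probe set (EBF lower), and in 23.2% of all probe sets (15.5% with EBF higher and 7.67% with EBF lower). The median log2 difference, EBF minus control, was -0.02 over the 22 and 0.02 over all tested probe sets. Apart from Mmp13, the log2 differences lay between -0.43 and 0.22, and 11 of the 22 were above 0. These counts describe genes that were picked from this contrast, and nothing is read from them.

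**Figure D1:**
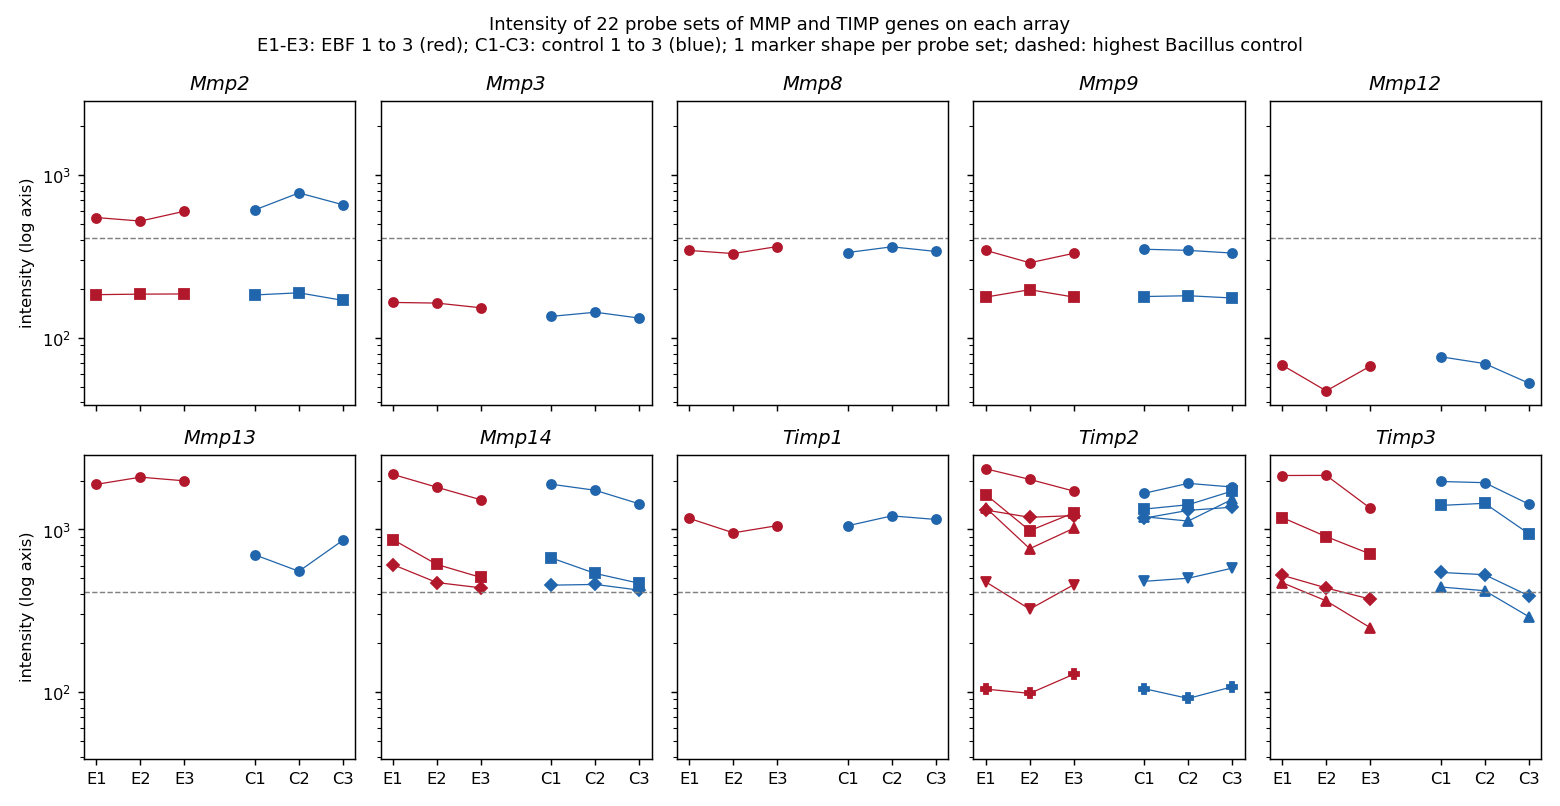
Intensity on a log axis for each of the 22 probe sets in the 3 EBF arrays (E1 to E3, red) and the 3 control arrays (C1 to C3, blue), with a marker shape for each probe set and lines that only join the arrays of a group. The Mmp13 arrays of EBF cells lie above all 3 control arrays, and the dashed line marks the highest Bacillus control intensity of 410.

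Mmp13, collagenase 3, cuts fibrillar collagens and is known from osteoblasts and hypertrophic cartilage. Its single probe set read 1896, 2098 and 1992 in EBF 1 to 3, against 698, 553 and 858 in control 1 to 3. Every EBF array was above every control array, and the control arrays were spread more widely than the EBF arrays. The means were 1995 ± 101 in the EBF arrays and 703 ± 153 in the controls (SD, n = 3 each), a 2.80-fold ratio on the log2(intensity + 32) scale, or a log2 difference of 1.48 ± 0.14 (limma SE). Between arrays of the same number the log2 differences were 1.40, 1.86 and 1.18. Of all 45037 probe sets, 38 had a log2 difference of 1 or more and 10, Mmp13 included, had one at least as large as that of Mmp13. In bulk samples such as these, more cells that make a transcript and more transcript per cell cannot be told apart.

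Of 7 measured osteoblast and hypertrophic chondrocyte markers, 5 were dim, among them Ibsp, Dmp1, Sost and Col10a1. The sum over the 7 was 2187 to 2386 in the EBF arrays and 2298 to 2468 in the controls. None of their 12 probe sets passed the limma threshold, and 1 of them had an unadjusted p below 0.05. The share of all probe sets below that unadjusted p was not computed, so nothing is read from this and later such counts. Sp7, a transcription factor of osteoblasts, read 456 ± 78.4 in the EBF arrays and 525 ± 36.2 in the controls (SD, n = 3 each).

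AP-1 and Runx proteins are described at the Mmp13 promoter, and RNA of some of them, though not of Runx2, was read. The stretch upstream of Mmp13 is shown for this reason. It is set beside those of Mmp3, which lies in the same gene cluster, and Mmp14, the 1 of 8 members with a window in the RefSeq table to match the EBF motif. Each line holds the 250 bases before the gene's start in RefSeq (GRCm38.p6), on the plus strand, at chr9:7272264-7272513 for Mmp13, chr9:7445572-7445821 for Mmp3 and chr14:54431348-54431597 for Mmp14. Capitals mark matches on either strand to TGANTCA (AP-1), ACCACA (Runx) or TCCC and GGGA around any 2 bases (EBF), where N is any base, and no matches overlap.
Mmp13: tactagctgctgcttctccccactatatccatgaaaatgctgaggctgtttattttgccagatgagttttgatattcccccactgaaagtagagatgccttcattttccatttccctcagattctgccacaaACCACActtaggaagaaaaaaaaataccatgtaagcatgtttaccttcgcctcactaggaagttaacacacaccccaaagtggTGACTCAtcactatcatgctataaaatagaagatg
Mmp3: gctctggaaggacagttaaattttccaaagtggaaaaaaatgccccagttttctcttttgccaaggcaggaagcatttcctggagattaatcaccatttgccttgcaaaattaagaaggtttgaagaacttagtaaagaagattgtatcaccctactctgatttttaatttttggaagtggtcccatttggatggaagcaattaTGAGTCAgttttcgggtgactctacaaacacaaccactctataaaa
Mmp14: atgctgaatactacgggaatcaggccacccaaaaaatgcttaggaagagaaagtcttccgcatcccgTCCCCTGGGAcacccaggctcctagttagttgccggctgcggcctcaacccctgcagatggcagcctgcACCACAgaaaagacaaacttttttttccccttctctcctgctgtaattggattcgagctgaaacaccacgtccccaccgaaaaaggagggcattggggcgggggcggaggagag

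Mmp13 held TGACTCA, whose first base lay 35 bases before the start, and ACCACA 118 bases before it, and had no EBF match in this window. Mmp3 held TGAGTCA 46 bases before the start. Mmp14 held TCCCCTGGGA 183 and ACCACA 114 bases before the start. Among 32851 upstream windows of the same length in the table, 6.75% held the AP-1 letters, 14% the Runx letters and 0.779% the EBF letters. The 8 members in the table had 9 windows, since Mmp12 had more than 1. Of these 9 windows, 3 held the AP-1 letters, 2 the Runx letters and 1 the EBF letters. A match is a description of the sequence and not a binding site.

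Transcription factors described at MMP promoters were read from a list. Of the 55 probe sets of 22 such genes 1 passed, that of Stat3, a factor activated by cytokine receptors, and it was lower (adjusted p = 0.0115, limma). The Stat3 probe set read 1064, 961 and 1067 in EBF 1 to 3, against 1568, 1566 and 1710 in control 1 to 3 (log2 -0.63 ± 0.08). The call was lost without EBF 2, control 1 or control 2 (highest limma adjusted p 0.0661). The brightest Stat3 probe set passed as lower with the block alone (log2 -0.33 ± 0.09; limma adjusted p = 0.127, blocked 0.0337). With the block 1 probe set was higher and 5 were lower.

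The next 4 genes were chosen after their values were seen. Fos, a subunit of AP-1, read 823, 1904 and 645 in EBF 1 to 3, against 1607, 4354 and 1132 in control 1 to 3 (log2 -0.97 ± 0.51; limma adjusted p = 0.339, blocked 6.16e-04). Both groups were highest in replicate 2, and each EBF array was below the control array of its number. Jun, its partner, read 1505, 4680 and 1025 in EBF 1 to 3 at its brightest probe set, against 1709, 5704 and 1464 in control 1 to 3 (limma adjusted p = 0.807, blocked 0.0527). Runx3 was lower with the block at 1 probe set (log2 -0.58 ± 0.11; limma adjusted p = 0.0555, blocked 0.00333) and had a log2 difference of 0.10 at the other. Ets1, an ETS factor of lymphocytes, was higher with the block at its brightest probe set (log2 0.50 ± 0.10; limma adjusted p = 0.0788, blocked 0.0115). The part of these factors in the Mmp13 values was not tested, and Runx2 was not matched to a probe set here.

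Mmp13 stands at the end of a run of 10 consecutive MMP genes on chromosome 9 in the RefSeq gene order (GRCm38.p6), of which 9 had a probe set here. Mmp12, its neighbour and the macrophage elastase, was dim at 67.9, 47.1 and 66.9 in EBF 1 to 3, against 76.4, 69.4 and 52.6 in control 1 to 3. Mmp3, stromelysin 1, was dim at 165, 163 and 153 in EBF 1 to 3, against 135, 144 and 132 in control 1 to 3. The Mmp3 groups did not overlap, with a log2 difference of 0.19 ± 0.07. Mmp8, the neutrophil collagenase, was dim at 346 ± 17.3 in the EBF arrays and 346 ± 15.0 in the controls (SD, n = 3 each), and its arrays overlapped.

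The other measured genes of the run are Mmp1a, Mmp1b, Mmp7, Mmp10 and Mmp20. None of their 5 probe sets passed in the limma fit with or without the block, and 1, that of Mmp7, had an unadjusted p below 0.05 (log2 0.21 ± 0.09; limma adjusted p = 0.260). Mmp10, stromelysin 2, was the 1 of the 5 above the Bacillus limit, at 555, 541 and 676 in EBF 1 to 3, against 571, 614 and 586 in control 1 to 3. The 8 probe sets of the 4 flanking genes Dync2h1, Dcun1d5, Tmem123 and Birc2, chosen after the data had been seen, had log2 differences from -0.30 to 0.27. None of these passed by limma in either fit, and 1 had an unadjusted p below 0.05.

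**Figure D2:**
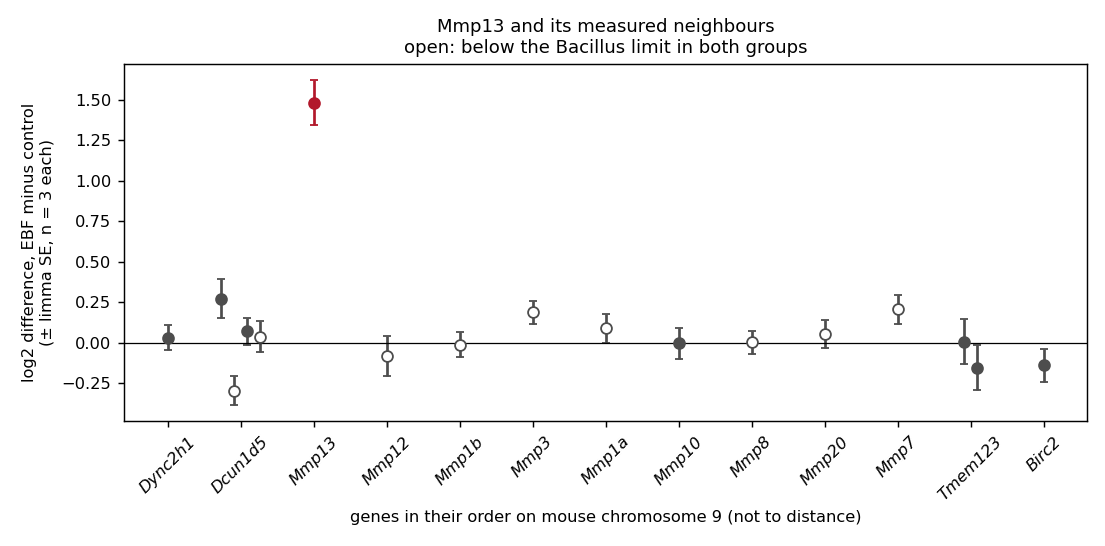
Log2 difference, EBF minus control, with limma's SE (n = 3 each) for every probe set of Mmp13 and its measured neighbours, in gene order on chromosome 9 and not to distance. Mmp13 stands at 1.48 and the other probe sets between -0.30 and 0.27, and open points are below the Bacillus limit in both groups.

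By the root mean square distance between log2 profiles centred on their means over the 6 arrays, the genes most like Mmp13 were Capsl (0.18), Col26a1 (0.22), Acp6 (0.22), Rsph9 (0.25) and A630023P12Rik (0.27). All of them were higher in the EBF arrays, which is fixed by the measure since Mmp13 differs between the groups. Capsl read 482, 444 and 500 in EBF 1 to 3, against 199, 160 and 218 in control 1 to 3. Its lowest control array was control 2, as for Mmp13, a likeness that the measure also favours. Control 2 was lowest in Col26a1 and Acp6 too, and control 1 in Rsph9 and A630023P12Rik.

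The gelatinases cut denatured collagen and type IV collagen. Mmp2, gelatinase A, read 549, 523 and 601 in EBF 1 to 3, against 612, 779 and 658 in control 1 to 3 at its brighter probe set. The groups did not overlap, although EBF 3 and control 1 lay close together (log2 -0.27 ± 0.10). Its other probe set was dim at 185 ± 0.968 in the EBF arrays and 181 ± 9.90 in the controls (SD, n = 3 each). Mmp9, gelatinase B, which neutrophils store in granules, was dim at both probe sets. They read 322 ± 28.9 and 185 ± 11.3 in the EBF arrays, against 342 ± 9.50 and 179 ± 2.89 in the controls (SD, n = 3 each), and the arrays of the groups overlapped at both.

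Of 14 measured neutrophil markers 10 were dim, among them Mpo, Ctsg, Camp, Ngp, Lcn2, S100a8 and S100a9. The sum over the 14 was 5907 to 6395 in the EBF arrays and 5852 to 6360 in the controls. None of their 14 probe sets passed the limma threshold, and 3 higher and 2 lower ones had an unadjusted p below 0.05. Of these markers Prtn3, a granule protease, was lower with the block (log2 -0.37 ± 0.10; limma adjusted p = 0.141, blocked 0.0281), and the dim Cd177, a neutrophil surface protein, was higher with it (0.42 ± 0.11; limma adjusted p = 0.142, blocked 0.0280). Ltf, lactoferrin, had a log2 difference of 0.39 ± 0.14. Of 19 macrophage and osteoclast genes 8 were dim, and 1 fell, Mrc1, the mannose receptor (5458 ± 108 in the EBF arrays and 7359 ± 437 in the controls, SD, n = 3 each; limma adjusted p = 0.0428). Its call was lost without any 1 array other than EBF 3 (highest limma adjusted p 0.170), and with the lower pseudocount (0.0531). The sum over these 19 genes was 15628 to 15706 in the EBF arrays and 16933 to 18141 in the controls. Without Mrc1 the sum over the other 18 was 10051 to 10279 in the EBF arrays and 9534 to 10837 in the controls, so that the groups overlapped.

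Mmp14, also called MT1-MMP, is anchored in the cell membrane and activates pro-Mmp2 together with Timp2. Its brightest probe set read 2183, 1819 and 1523 in EBF 1 to 3, against 1898, 1742 and 1437 in control 1 to 3. Its other probe sets read 867, 609 and 507 and 608, 471 and 437 in EBF 1 to 3, against 668, 536 and 466 and 454, 459 and 423 in control 1 to 3. EBF 1 was the highest array at all 3 probe sets and the groups overlapped at each of them. The log2 differences were 0.11 ± 0.14, 0.22 ± 0.19 and 0.16 ± 0.12.

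Timp3 binds to the matrix and inhibits MMPs and ADAM proteases. At its brightest probe set it read 2148, 2152 and 1352 in EBF 1 to 3, against 1973, 1940 and 1433 in control 1 to 3, with overlapping groups (log2 0.06 ± 0.19). At probe set 1449335_at it read 1184, 903 and 707 in EBF 1 to 3, against 1406, 1449 and 943 in control 1 to 3 (log2 -0.43 ± 0.21). This was the probe set that passed as lower with the block, where its differences between arrays of the same number were -0.24, -0.66 and -0.40. The remaining pair of probe sets had log2 differences of -0.12 ± 0.15 and -0.10 ± 0.22, so the 4 probe sets disagreed in direction, with 1 higher and 3 lower.

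What the Timp3 probe sets shared was a low array of replicate 3 in both groups. EBF 3 was the lowest EBF array and control 3 the lowest control array at all 4 Timp3 probe sets and at all 3 of Mmp14, against 21.4% of all tested probe sets. The single Mmp3 probe set had this order too. The order was chosen after the values were seen and probe sets of 1 gene are not independent, so these shares are a description. At the brightest Timp3 probe set the log2 deviation from the mean of the 6 arrays was -0.41 in EBF 3 and -0.32 in control 3, and between 0.10 and 0.25 in the other 4 arrays. At this probe set the difference between the group means was smaller than the spread between arrays of a group.

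Timp2 inhibits MMPs and, at low levels, helps Mmp14 to activate Mmp2. It had 6 probe sets, of which 4 were lower and 2 higher in the EBF arrays. The brightest read 2362, 2033 and 1722 in EBF 1 to 3, against 1669.7, 1922 and 1824 in control 1 to 3 (log2 0.16 ± 0.12), and the groups overlapped. At probe set 1433662_s_at it read 1362, 762 and 1018 in EBF 1 to 3, against 1198, 1126 and 1535 in control 1 to 3 (log2 -0.31 ± 0.20). EBF 2 was the lowest and control 3 the highest of these 6 arrays.

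The same held at probe sets 1460287_at and 1420924_at, with log2 differences of -0.22 ± 0.17 and -0.31 ± 0.14. EBF 2 was thus the lowest and control 3 the highest of all arrays at 3 of 6 Timp2 probe sets, against 3.05% of all tested probe sets. This order, too, was chosen after the Timp2 values were seen, so the share is a description. At 1420924_at, which read 476, 323 and 457 in EBF 1 to 3, against 479.7, 501 and 578 in control 1 to 3, the groups just failed to overlap. Between arrays of the same number, 1433662_s_at differed by 0.18, -0.55 and -0.58, so the first pair went the other way. Timp1, which inhibits most secreted MMPs and also signals through the cell surface, read 1170.0, 953 and 1056 in EBF 1 to 3, against 1054, 1212 and 1153 in control 1 to 3 (log2 -0.10 ± 0.09), with overlapping groups.

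Stromal markers moved with this pattern in part. The summed intensity of 25 stromal genes other than Igfbp4 was 46142, 35527 and 41764 in EBF 1 to 3, against 37875, 49606 and 56415 in control 1 to 3. EBF 2 was the lowest and control 3 the highest of the arrays, as at the 3 Timp2 probe sets, and 8 of the 25 genes had this order at their brightest probe set. Of the 25, 16 were lower and 9 higher in the EBF arrays, 21 were above the Bacillus limit, and the groups overlapped in 24. Among them Col1a2, a chain of type I collagen, read 4457, 2632 and 3433 in EBF 1 to 3, against 3319, 5100 and 6020 in control 1 to 3 (limma adjusted p = 0.348). The part of stromal RNA in the TIMP and MMP values was not tested.

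Of the 26 stromal genes 1 fell, Igfbp4, which binds insulin-like growth factors. All 6 of its probe sets were lower in the EBF arrays, with log2 differences from -0.70 to -0.97. The brightest read 6568, 6324 and 6831 in EBF 1 to 3, against 11604, 12009 and 11406 in control 1 to 3 (limma adjusted p = 0.00222), and the call held without any 1 array. Of the other 5 probe sets, 3 lost the call without EBF 2, control 1 or control 2, up to a limma adjusted p of 0.0845.

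**Figure D3:**
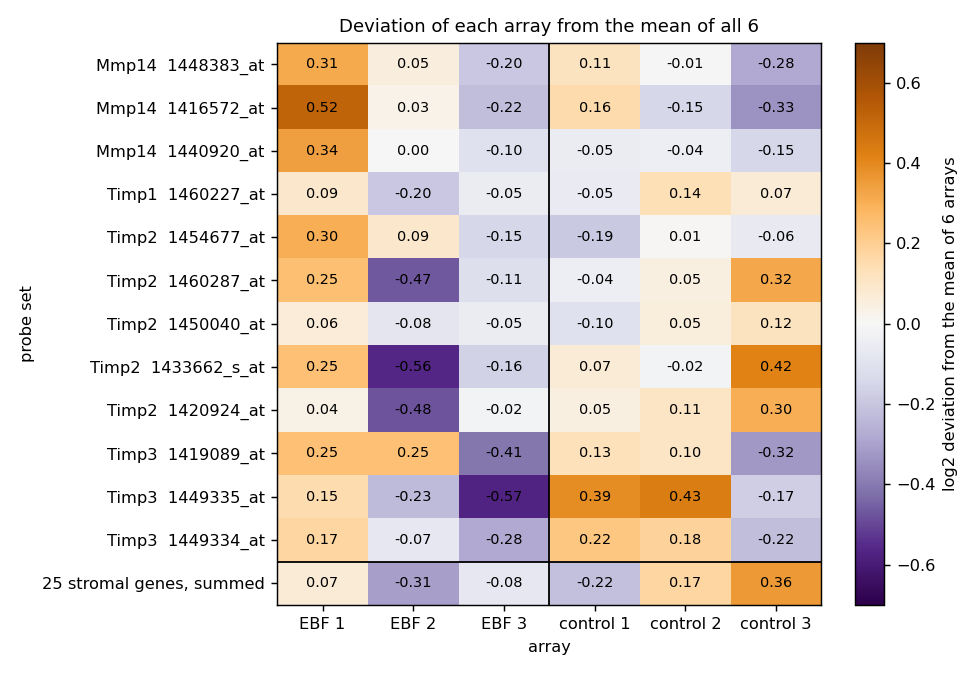
Log2 deviation of each array (columns, 3 EBF arrays left of 3 control arrays) from the mean of all 6, for the probe sets of Mmp14, Timp1, Timp2 and Timp3 above the Bacillus limit and for the sum of 25 stromal genes in the bottom row. EBF 3 and control 3 are below 0 at every Mmp14 and Timp3 probe set, and EBF 2 has the lowest value at 3 Timp2 probe sets and in the stromal sum.

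**Figure D4:**
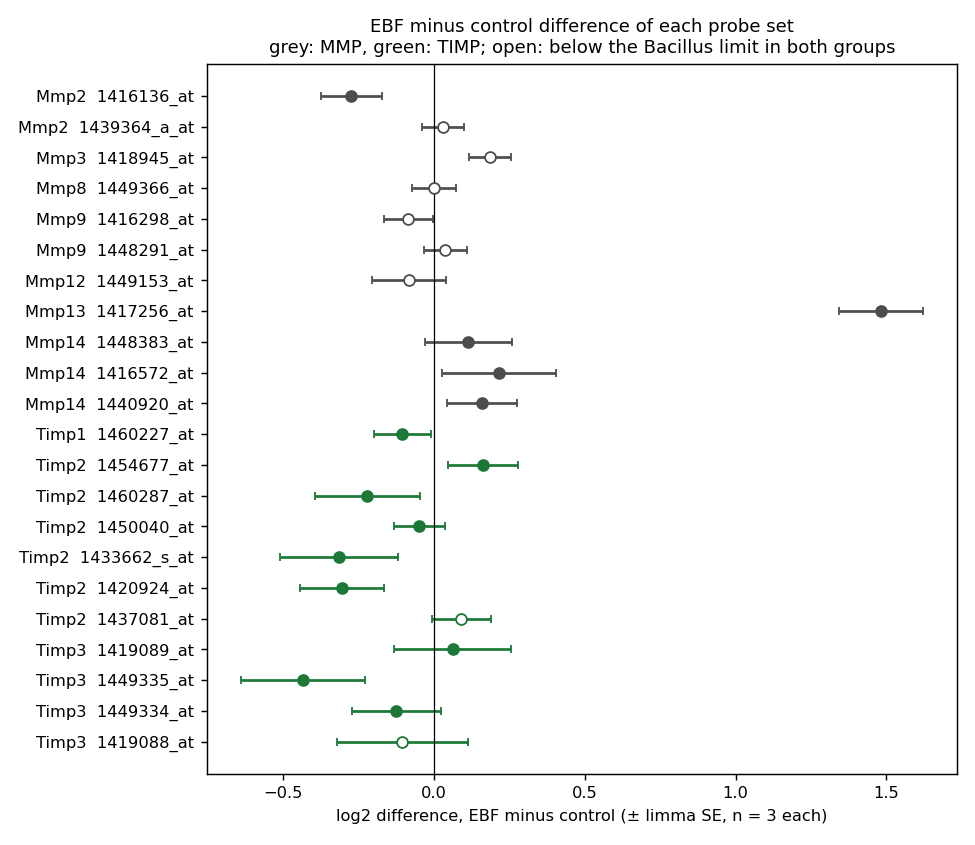
Log2 difference, EBF minus control, for each of the 22 probe sets with limma's SE (n = 3 each), MMPs in grey and TIMPs in green, open where dim. Mmp13 lies at 1.48, the other 21 between -0.43 and 0.22, and the probe sets of Timp2 and Timp3 fall on both sides of 0.

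The other genes of the pathway were read from lists of related genes. Of 11 further MMP genes with 18 probe sets, 14 of them dim, 0 passed the limma fit, and 5 higher and 0 lower had an unadjusted p below 0.05. Without the share of all probe sets below that unadjusted p, no lean is read from this count. The blocked fit called 3 higher, all of them dim. They were 1 of Mmp19 and 2 of Mmp16, a membrane-bound MMP, of which 1443412_s_at read 90.5, 94.6 and 48.2 in EBF 1 to 3, against 42.3, 36.3 and 37.8 in control 1 to 3 (limma adjusted p = 0.133, blocked 0.0202). The brightest Mmp16 probe set had a log2 difference of -0.07, so its probe sets disagreed. Mmp23, a membrane-bound MMP without the usual haemopexin domain, read 709, 839 and 787 in EBF 1 to 3, against 582, 608 and 682 in control 1 to 3 (log2 0.30 ± 0.09; limma adjusted p = 0.156). Mmp24, another membrane-bound member, had a log2 difference of 0.10 ± 0.11.

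Of 6 other inhibitor genes with 7 probe sets, 0 passed by limma in either fit, and 1 had an unadjusted p below 0.05. Timp4 read 1014 ± 146 in the EBF arrays and 1050.3 ± 85.0 in the controls (SD, n = 3 each), and Serpinf2, the plasmin inhibitor, had a log2 difference of -0.09 ± 0.08. Of 23 ADAM and ADAMTS genes with 48 probe sets, 0 passed by limma, and 4 higher and 2 lower had an unadjusted p below 0.05. In the blocked fit Adam12, a membrane metalloprotease (log2 0.54 ± 0.18; limma adjusted p = 0.176, blocked 0.00665), and Adamdec1 (0.51 ± 0.16; 0.161, blocked 0.00691) were higher. Adam12 read 639.8, 573 and 391 in EBF 1 to 3, against 402, 368 and 289 in control 1 to 3, with EBF 3 inside the control range.

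Among 17 genes that activate, bind or clear MMPs, 2 fell and 0 rose in the fit of group alone. Of their 39 probe sets 3 passed, all lower, and with the block 2 were higher and 5 lower. Itgav, the integrin alpha-v chain, which pairs with beta-3 to bind Mmp2 at the cell surface, read 1814, 1754 and 2155 in EBF 1 to 3, against 3129.8, 3197 and 3358 in control 1 to 3 (log2 -0.75 ± 0.09; limma adjusted p = 0.0111). The call was lost without EBF 1, EBF 2, control 1 or control 2 (highest 0.0696). Cd44, a hyaluronan receptor that docks Mmp9 on cells, fell at 2 probe sets, of which 1434376_at read 642, 446 and 558 in EBF 1 to 3, against 1055, 935 and 890 in control 1 to 3 (log2 -0.78 ± 0.13; limma adjusted p = 0.0356). It lost the call without EBF 2 or any 1 control (highest 0.149). The brightest Cd44 probe set was not called in either fit (log2 -0.17 ± 0.08; limma adjusted p = 0.286, blocked 0.225), and a dim Cd44 probe set was higher with the block (log2 0.79 ± 0.15; limma adjusted p = 0.0663, blocked 0.00432). Furin, which removes the propeptide of Mmp14, read 839, 905 and 804 in EBF 1 to 3, against 1203, 1189 and 1052 in control 1 to 3, and was lower with the block (log2 -0.42 ± 0.08; limma adjusted p = 0.0692, blocked 0.0141).

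Of 24 matrix substrate genes with 55 probe sets, 0 passed by limma, and 6 higher and 2 lower had an unadjusted p below 0.05. The blocked fit called 4 higher. Bcan, brevican, was among these (log2 0.51 ± 0.16; limma adjusted p = 0.162, blocked 0.00658), as was Col4a2, a chain of basement membrane collagen, at 3256, 3550.2 and 3301 in EBF 1 to 3, against 2339, 2689 and 2429 in control 1 to 3 (log2 0.44 ± 0.08; limma adjusted p = 0.0544, blocked 0.0115). Across all lists, marker lists included, 14 of 344 probe sets passed, 1 higher and 13 lower, and 6 of the 13 were those of Igfbp4. This is 4.07%, against 0.875% of all tested probe sets (0.344% higher and 0.531% lower). The lists were chosen with earlier results of these data known, so nothing is read from the difference in shares. Of the 14, the higher one was Vpreb3, a partner of the pre-B cell receptor, and 2 lower ones belonged to Dntt, which adds nucleotides during V(D)J recombination. Vpreb3 lost the call without EBF 2, control 1 or control 2 (highest limma adjusted p 0.0635), and the brighter of these Dntt probe sets did so with any 1 of EBF 1, EBF 2, control 1 and control 3 left out (highest limma adjusted p 0.106). The other of these Dntt probe sets, at log2 -0.87 ± 0.10, kept its call without any 1 array (highest limma adjusted p 0.0466). In the B lineage list, the block called 5 probe sets higher and 3 lower.

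**Figure D5:**
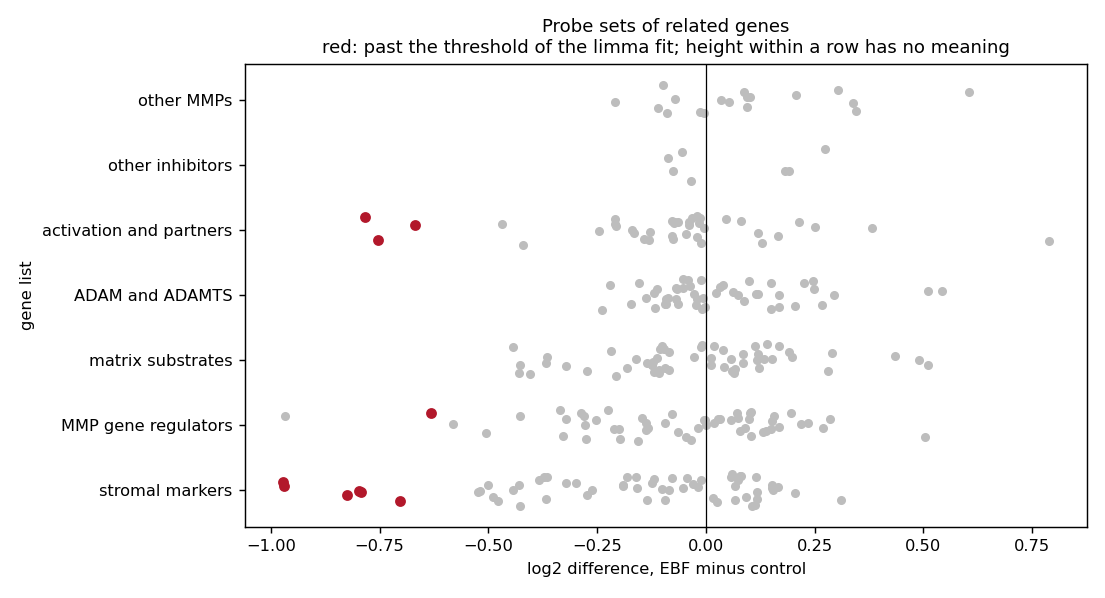
Log2 difference, EBF minus control, of each probe set of 7 gene lists around the MMPs and TIMPs, with probe sets past the limma threshold in red and height within a row without meaning. The red points are Cd44, Itgav, Stat3 and the 6 Igfbp4 probe sets, all below 0.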

How the data were processed

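The deposited table holds linear intensities of 6 arrays. Per the labels, 6 microg of total RNA per array went into biotin-labelled cRNA. How the authors computed these intensities (software, background, scaling) is not given in the sources used here. A rat array is named in the design text, while the organism label and the platform's gene table are mouse. The members and the 11 gene lists were chosen with earlier results of these data known, as were the sequence motifs. The number of arrays limits the precision.

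The analysis scale was log2(intensity + 32), which understates fold changes of dim genes. After 64 Affymetrix controls were left out, 45037 probe sets were fitted with limma 3.58.1 in R 4.3.3 (group only, EBF minus control, two-sided, Benjamini-Hochberg over all, threshold 0.05). Names came from the platform table: 34945 probe sets had 1 symbol, 932 several and 9160 no listed gene. Of 203 list entries, 19 were not matched. Genes named from the lists were those with a called probe set, up to the 4 largest, or the 2 largest differences above the Bacillus limit, and any other was chosen after its values were seen.

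Arrays of the same replicate number deviated together from their group means (correlations 0.318, 0.255 and 0.503), and each EBF array matched its own number best. The labels state no pairing, so the block was run as an alternative. Calls, SEs and leave-out results are from the fit of group alone unless the block is named, and so leave the replicate numbers unused. With the block 3280 probe sets passed, against 394 with group alone. Blocked values are given for the members and named genes whose call they change, and as counts for the lists. Upstream sequences and gene order are RefSeq's (GRCm38.p6). Alternatives covered pseudocounts of 16 and 100, scaling, quantile normalization, a minimum mean intensity of 200, an intensity trend, the block, 1 probe set per gene and leaving out arrays.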

Additional observations from a re-analysis of the deposited data

How the results depend on the processing

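Mmp13 kept its direction and stayed past the threshold under all 15 alternatives, with log2 differences from 1.33 to 1.63. Mmp13 was picked with this contrast known, and the alternatives reuse the same arrays, so this describes the processing and does not test Mmp13. Over the 22 member probe sets, 309 of 313 alternative values moved by less than the spread between replicates, and the 4 that moved were dim Mmp3 and Timp2 values. Small differences could still change sign within that spread, so their directions are not stable. The brightest Mmp14 probe set went from 0.11 to -0.01 without EBF 1, and the brightest Timp3 probe set from 0.06 to -0.09 without control 3. The block, the intensity trend, the minimum mean intensity and 1 probe set per gene leave a difference unchanged by construction. Their values are counted among the 313 and say nothing on stability. In the fit with the replicate block the member count was 2, and it was 1 without any 1 array. The count over all probe sets was 3280 with the block (2199 higher and 1081 lower), between 79 and 4287 when 1 array was left out, the highest without EBF 3, and 1887 without EBF 3 and control 2. Scaling to the median gave 121 higher and 288 lower, quantile normalization 120 and 262, against 155 and 239. The 14 list probe sets became 39 with the block, 7 with 1 probe set per gene, where fewer were tested, 4 to 43 with 1 array left out and 22 without EBF 3 and control 2. The block ended no call of a member or list probe set. For probe sets below the Bacillus limit, a difference may not be detectable at this signal.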
